A study of Mus musculus with 8 samples.

Results

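The genes described here encode the machinery that couples the electrical signal of a muscle fibre to calcium release and calcium return. There were 10 of them: Trdn, Jph1, Jph2, Ryr1, Cacna1s, Atp2a1, Atp2a2, Casq1, Casq2 and Sln. The rule that picks them goes by gene name, but the 10 genes were chosen with earlier results of these data known. Each was read from a probe set that the platform annotation assigns to that symbol alone. All 10 were found among 19938 genes named on the array. Where several probe sets carried a symbol, that with the highest mean over the 8 arrays was used, which concerned Trdn (19 probe sets), Jph1 (2) and Jph2 (2).

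RNA came from excised paws of male DBA1/J mice, a strain prone to collagen-induced arthritis, 8 to 10 weeks of age, and was hybridised to Affymetrix Mouse Gene 1.0 ST arrays, 2 arrays for each of 4 groups. The CIA+MLIF mice were injected into the skin over the tail base with collagen II from chicken (150 µg) emulsified in complete Freund adjuvant, were boosted with the same antigen in incomplete adjuvant at week 3 and were given MLIF (monocyte locomotion inhibitory factor), an anti-inflammatory pentapeptide first found in Entamoeba histolytica, through the nose every week from before the first injection. The CIA (collagen-induced arthritis) mice had the same immunisation without peptide. The adjuvant+MLIF mice received both adjuvants and the peptide but no collagen, and the adjuvant mice received the adjuvants alone, so that every group, controls included, had been injected with Freund adjuvant. Each group held 8 mice and the labels of the samples put collection at 4 weeks after the booster, while the design text of the series says before it. Both arrays of a group are labelled as biological replicates, but how many mice stand behind an array is not said, so the p-values below measure the spread between these arrays.

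In skeletal muscle the action potential runs down the transverse tubule to the triad, where the tubule lies between a pair of terminal cisternae of the sarcoplasmic reticulum. The voltage sensor Cav1.1 (Cacna1s) in the tubule membrane opens the ryanodine receptor (Ryr1) in the facing reticulum by direct contact. Junctophilins (Jph1, Jph2) hold both membranes together, triadin (Trdn) ties the ryanodine receptor to calsequestrin, and calsequestrins (Casq1, Casq2) store calcium in the lumen. The calcium pumps SERCA1 (Atp2a1) and SERCA2 (Atp2a2) return calcium after contraction, and sarcolipin (Sln) inhibits them. Fast fibres rely on Atp2a1, whereas slow fibres and the heart use Atp2a2. Casq2 is found in the heart and in slow fibres, and Casq1 and Casq2 are set here as the fast and slow pair. Atp2a2 also has a splice form found in most cell types, keratinocytes among them.

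The paws held skeletal muscle on all arrays: each of 12 fibre markers, Acta1 and Ckm among them, lay above the array's median control entry on all 8 arrays. Of 8 heart muscle markers, Ryr2 and Myl7 lay at or below that median on every array, and Tnnt2 and Mybpc3 above it on all 8. Myh6, Nppa, Tnni3 and Nppb lay at or below it on 1 to 3 arrays. The control entries are those in the unannotated block that opens the table, and their medians ran from 5.88 to 6.44 on the log2 scale. They serve here as the level below which the size of a change is not well determined. CIA replicate 1 stood apart in scale, its tested probe sets having a median log2 signal of 6.66, whereas those of the remaining arrays were 7.07 to 7.1. Taken across the 28944 probe sets tested, the median change was -0.25 for CIA against adjuvant and 0.24 for CIA+MLIF against CIA, and some changes are also given relative to it. The adjuvant+MLIF arrays resembled each other more than replicates did elsewhere: their difference had an SD over probe sets of 0.0936, while that of the remaining groups was 0.207 to 0.324.

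Promoter windows are shown first, so that the start regions of these genes can be compared. Whether they bear on the changes described below was not tested. RefSeq windows (GRCm38.p6, the C57BL/6J reference and not DBA1/J sequence) that reach from 250 bases before to 50 after the transcription start were matched for 6 of the 10 genes: Cacna1s, Casq1, Casq2, Jph2, Ryr1 and Atp2a1. The E-box CAGCTG, a palindrome bound by myogenic bHLH factors such as MyoD, was present in the windows of 4 of them, against 16.3% of all 32851 windows. The windows of the voltage sensor gene and of the fast pump and fast calsequestrin genes are printed with this E-box in capitals. It begins 123 bases before the start in Cacna1s, 55 in Atp2a1 and 195 in Casq1.
Cacna1s, chr1:136052561-136052860, plus strand: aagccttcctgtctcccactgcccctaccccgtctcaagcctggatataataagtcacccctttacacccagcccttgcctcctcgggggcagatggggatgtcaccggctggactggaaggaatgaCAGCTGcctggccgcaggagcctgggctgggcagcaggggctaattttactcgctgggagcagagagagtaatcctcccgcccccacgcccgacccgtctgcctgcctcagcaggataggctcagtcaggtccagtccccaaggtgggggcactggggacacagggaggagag
Atp2a1, chr7:126463024-126463323, minus strand: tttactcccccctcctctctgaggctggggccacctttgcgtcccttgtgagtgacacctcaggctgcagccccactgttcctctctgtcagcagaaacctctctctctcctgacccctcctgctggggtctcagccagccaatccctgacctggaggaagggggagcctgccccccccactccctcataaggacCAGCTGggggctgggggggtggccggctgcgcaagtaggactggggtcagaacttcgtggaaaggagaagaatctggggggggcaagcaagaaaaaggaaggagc
Casq1, chr1:172219846-172220145, minus strand: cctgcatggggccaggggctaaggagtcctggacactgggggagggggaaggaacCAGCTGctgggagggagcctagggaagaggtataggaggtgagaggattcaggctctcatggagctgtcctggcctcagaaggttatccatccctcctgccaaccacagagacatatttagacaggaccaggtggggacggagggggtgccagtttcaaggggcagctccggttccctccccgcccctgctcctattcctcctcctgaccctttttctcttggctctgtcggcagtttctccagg

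The slow calsequestrin gene is shown for contrast with its fast partner. Its window has no CAGCTG and holds the MEF2 motif, printed in capitals, 69 bases before the start. MEF2 factors are partners of the myogenic bHLH factors, and 3.19% of all windows hold this motif on either strand.
Casq2, chr3:102086165-102086464, plus strand: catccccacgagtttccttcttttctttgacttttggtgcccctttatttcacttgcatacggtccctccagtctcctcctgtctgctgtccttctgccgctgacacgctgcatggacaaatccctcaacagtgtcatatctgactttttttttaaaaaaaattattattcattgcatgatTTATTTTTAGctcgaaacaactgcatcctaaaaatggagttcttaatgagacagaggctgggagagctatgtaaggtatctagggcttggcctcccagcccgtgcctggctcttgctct
The fourth gene with CAGCTG was Jph2, which has 2 windows in the table from starts 20 bases apart, with the E-box beginning 29 and 9 bases before them. The MCAT motif CATTCC, which binds TEAD factors and was searched on both strands, occurred in the Cacna1s window alone among the 6 genes and in 14.7% of all windows. None of the 3 motifs was in the Ryr1 window. A match is a description of the letters and no evidence of binding.

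Arthritic paws without peptide were first set against adjuvant paws. The channel, tether and triadin genes fell by 1.30 to 2.19 on the log2 scale, the calsequestrins by 1.0 and 1.19 and the fast pump by 0.81, whereas the slow pump gene did not pass. The sizes of these falls were not tested against each other, and in such bulk tissue fewer fibres and less RNA per fibre cannot be told apart. Jph1 had the largest fall of the 10, a 4.56-fold difference, followed by Trdn (3.67-fold) and Cacna1s (3.26-fold). By limma (Benjamini-Hochberg adjusted p under 0.05), 8 of the 10 genes were lower in CIA, none was higher and 2 did not pass (Atp2a2 and Sln), where 14.2% of all probe sets were lower and 4.3% higher. Their median change was -1.24, which is -1.0 relative to the median of all probe sets. The CIA arrays lay below both adjuvant arrays for 9 of the 10 genes, as they did for 44.7% of all probe sets, and above them for Atp2a2. Without CIA replicate 1, the array with the low scale, the median change of all probe sets was -0.04. Without CIA replicate 2 it was -0.44. With single arrays left out, Jph1 changed by -2.36 to -2.02 and Atp2a1, the smallest fall that passed, by -0.84 to -0.78. Over all probe sets, quantile normalization gave 4176 higher and 3951 lower calls, and centring each array 3876 and 4092, in place of 1245 and 4108.

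**Figure D1:**
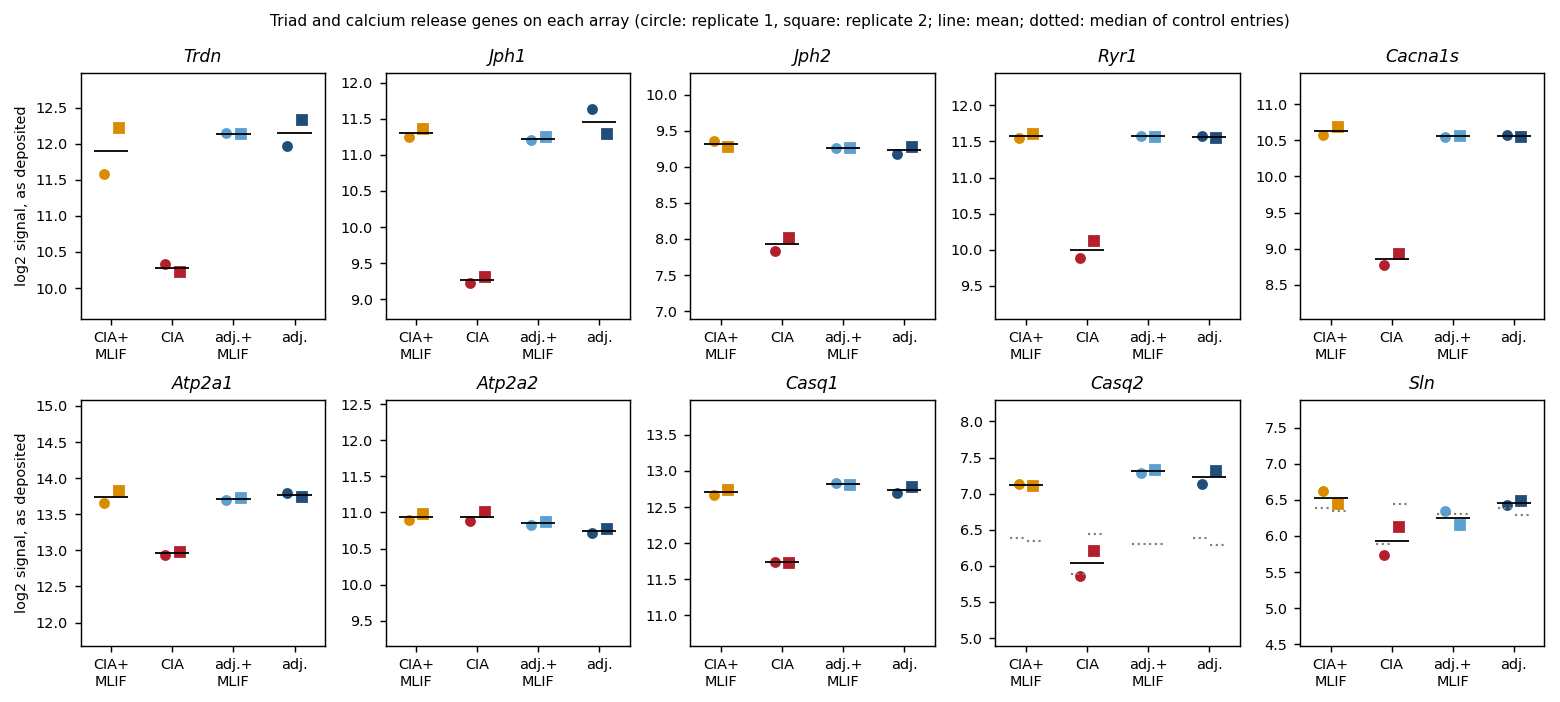
Log2 signals (y axis, each panel spanning the same range of log2 units) of the 10 genes on the 8 arrays, by group (x axis; adj., adjuvant). Circles are replicate 1, squares replicate 2, lines group means and dotted lines the median control entry of each array where it lies within the panel. The 2 CIA arrays lie below the other 6 in every panel except that of Atp2a2, with the narrowest gap for Sln.

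Among the genes that join the membranes, Jph1 (probe set 10353309), the junctophilin of skeletal muscle, had log2 signals of 11.24 and 11.36 in CIA+MLIF, 9.23 and 9.31 in CIA, 11.21 and 11.24 in adjuvant+MLIF, and 11.63 and 11.29 in adjuvant. The CIA arrays were the 2 low ones and did not come near the others. The fall in CIA against adjuvant was -2.19 (SE 0.16, limma adjusted p = 2.88e-05), and the second Jph1 probe set gave -1.82. Jph2 (probe set 10489357), the junctophilin that also serves the heart, had 9.36 and 9.27 in CIA+MLIF, 7.83 and 8.02 in CIA, 9.26 and 9.26 in adjuvant+MLIF, and 9.17 and 9.28 in adjuvant. The order of the groups was the same as for Jph1 at the low end, with a smaller gap. Its change was -1.30 (SE 0.15, limma adjusted p = 0.000384), and that of its second probe set -0.90.

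Triadin was the member with the widest spread between arrays of a group. Trdn (probe set 10362434) had log2 signals of 11.58 and 12.22 in CIA+MLIF, 10.33 and 10.22 in CIA, 12.15 and 12.13 in adjuvant+MLIF, and 11.97 and 12.33 in adjuvant. CIA+MLIF replicate 1 lay below all adjuvant and adjuvant+MLIF arrays and above both CIA arrays. The change in CIA against adjuvant was -1.88 (SE 0.22, limma adjusted p = 0.000502).

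The channels moved much alike. Ryr1 (probe set 10561561), the release channel itself, had 11.55 and 11.61 in CIA+MLIF, 9.88 and 10.12 in CIA, 11.58 and 11.56 in adjuvant+MLIF, and 11.57 and 11.55 in adjuvant. Cacna1s (probe set 10350199), the voltage sensor, had 10.57 and 10.68 in CIA+MLIF, 8.78 and 8.93 in CIA, 10.55 and 10.56 in adjuvant+MLIF, and 10.57 and 10.55 in adjuvant. For both, the 6 arrays outside CIA fell within a narrow band and the CIA arrays far below it. In CIA against adjuvant Ryr1 changed by -1.56 (SE 0.15, limma adjusted p = 0.000124) and Cacna1s by -1.7 (SE 0.14, limma adjusted p = 6.21e-05).

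Both calsequestrins fell, fast and slow alike in direction. Casq1 (probe set 10360235), set here as the fast isoform, had 12.67 and 12.74 in CIA+MLIF, 11.74 and 11.73 in CIA, 12.83 and 12.81 in adjuvant+MLIF, and 12.70 and 12.78 in adjuvant, with a change of -1.0 (SE 0.14, limma adjusted p = 0.00115) in CIA against adjuvant. Casq2 (probe set 10494804), set here as the slow isoform, had 7.14 and 7.10 in CIA+MLIF, 5.86 and 6.21 in CIA, 7.29 and 7.33 in adjuvant+MLIF, and 7.14 and 7.31 in adjuvant, with a change of -1.19 (SE 0.16, limma adjusted p = 0.00117). Neither gene's CIA arrays overlapped with those of another group. The CIA signals of Casq2 were below the median control entries of those arrays, 5.88 and 6.44, so how far it fell is uncertain.

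The pumps parted. Atp2a1 (probe set 10567879), the pump of fast fibres, had 13.65 and 13.82 in CIA+MLIF, 12.94 and 12.98 in CIA, 13.70 and 13.72 in adjuvant+MLIF, and 13.80 and 13.74 in adjuvant. Its change of -0.81 (SE 0.14, limma adjusted p = 0.00445) was the smallest among the 8 falls that passed, and it did not pass without adjuvant replicate 1 (-0.78, limma adjusted p = 0.0571) or with array weights (limma adjusted p = 0.0605). Atp2a2 (probe set 10533483), the slow and general pump, had 10.90 and 10.98 in CIA+MLIF, 10.88 and 11.0 in CIA, 10.83 and 10.87 in adjuvant+MLIF, and 10.71 and 10.77 in adjuvant. Its CIA arrays were not the low ones, and both lay above the adjuvant arrays. The change of 0.20 (SE 0.14, limma adjusted p = 0.322) did not pass as fitted and came to 0.45 relative to the median of all probe sets. With each array centred on its median it was 0.42 and passed (limma adjusted p = 0.0341), whereas after quantile normalization it was 0.28 and did not pass (limma adjusted p = 0.0666). The table holds 1 probe set for Atp2a2, so its splice forms were not told apart here.

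Sarcolipin was close to the level of the control entries throughout. Sln (probe set 10585390) had 6.62 and 6.44 in CIA+MLIF, 5.74 and 6.12 in CIA, 6.35 and 6.15 in adjuvant+MLIF, and 6.43 and 6.48 in adjuvant. It lay at or below the median control entry on both CIA arrays and on adjuvant+MLIF replicate 2. The change of -0.52 in CIA against adjuvant (SE 0.17, limma adjusted p = 0.0680) did not pass. Without CIA replicate 2 it came to -0.71, where the median of all probe sets was -0.44. Without CIA replicate 1 it was -0.33, where that median was -0.04.

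**Figure D2:**
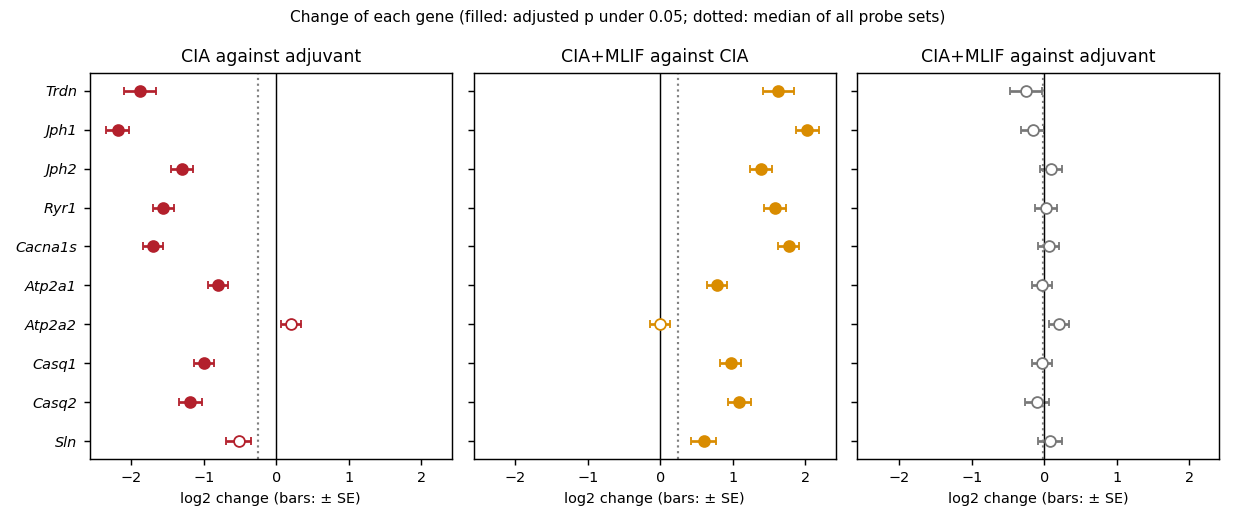
Fitted log2 change (x axis) of each gene (y axis) in 3 comparisons, with bars of ± 1 SE from limma, filled where the adjusted p was under 0.05 and a dotted line at the median of all probe sets. The changes in CIA+MLIF against CIA are opposite in sign to those in CIA against adjuvant, which use the same CIA arrays, and those in CIA+MLIF against adjuvant lie between -0.25 and 0.20.

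The comparison of CIA+MLIF with CIA asked what differed between collagen-immunised mice with the peptide, given from before the first injection, and those without it. The genes that were lower in CIA were higher with the peptide, and Sln passed as well. Jph1 rose by 2.03 (SE 0.16, limma adjusted p = 0.000101), Cacna1s by 1.77 (SE 0.14, limma adjusted p = 0.000107) and Ryr1 by 1.58 (SE 0.15, limma adjusted p = 0.000225) on the log2 scale. In all, 9 of the 10 genes rose and none fell, where 11.5% of all probe sets were higher and 3.25% lower, and the median change was 1.24 (1.00 relative to all probe sets). Both CIA+MLIF arrays lay above both CIA arrays for these 9 genes, as for 40.7% of all probe sets. Because this comparison and the previous one use the same CIA arrays, a low value on those arrays enters both with opposite sign. Over all probe sets, quantile normalization gave 3318 higher and 3771 lower calls, and centring 3479 and 3505, in place of 3315 and 942.

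The remaining rises were those of Trdn at 1.63 (SE 0.22, limma adjusted p = 0.00162), Jph2 at 1.39 (SE 0.15, limma adjusted p = 0.000402), Casq2 at 1.09 (SE 0.16, limma adjusted p = 0.00270), Casq1 at 0.97 (SE 0.14, limma adjusted p = 0.00199) and Atp2a1 at 0.78 (SE 0.14, limma adjusted p = 0.00702). Atp2a1 lost its call without CIA+MLIF replicate 2 (0.69, limma adjusted p = 0.0616), with array weights (limma adjusted p = 0.105) and when only the groups compared were fitted (limma adjusted p = 0.0775). Sln rose by 0.60 (SE 0.17) at a limma adjusted p of 0.0496, just under the threshold, with CIA signals at or below the control entries. Its call was lost under 14 of 19 alternatives, and with the replicate numbers as a block its adjusted p was 0.0644. Atp2a2 averaged 10.94 in CIA+MLIF and 10.94 in CIA (limma adjusted p = 0.984).

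With the peptide, no difference between collagen-immunised mice and either adjuvant group passed the test in these genes. Against adjuvant, none of the 10 genes in CIA+MLIF passed by limma or had an unadjusted p under 0.05, where 0.833% of all probe sets passed, and the changes ran from -0.25 for Trdn to 0.20 for Atp2a2, with SEs of 0.14 to 0.22. Against adjuvant+MLIF again none passed or had an unadjusted p under 0.05 (0.729% of all probe sets passed, 0.0173% as lower), with changes from -0.24 for Trdn to 0.28 for Sln. The CIA+MLIF and adjuvant arrays overlapped for 9 of the 10 genes. The exception was Atp2a2, whose CIA+MLIF arrays both lay higher, as did those of 16.4% of all probe sets, and 19.6% lay lower. The CIA+MLIF arrays lay apart from the adjuvant+MLIF arrays on the low side for 2 genes and on the high side for 4, where 32.2% and 21.0% of all probe sets did. Changes of this size were not detectable with 2 arrays a group. For Trdn these values are those of the chosen probe set. Against adjuvant all 19 of its probe sets were negative in CIA+MLIF (median -0.41). Of these, 8 had an unadjusted p under 0.05, as had 974 of all 28944 probe sets.

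In mice without collagen no change of these 10 genes with the peptide passed the test. In adjuvant+MLIF against adjuvant none of the 10 passed and none had an unadjusted p under 0.05. Over the whole table limma called 0.0% of the 28944 probe sets in this comparison, and 1107 of them had an unadjusted p under 0.05. The number called depended on the fit. It was 365 after quantile normalization, 275 after centring each array, 676 with only the groups compared and 1440 with array weights. None of the 10 genes passed in any of these fits. The arrays lay apart on the low side for 3 genes and on the high side for 2, as they did for 23.0% and 31.7% of all probe sets. The changes ran from -0.23 for Jph1 (SE 0.16) to 0.11 for Atp2a2 (SE 0.14). For Trdn the chosen probe set gave -0.01, but 17 of its 19 probe sets were negative (median -0.26), 5 had an unadjusted p under 0.05, and 7 passed with array weights.

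The difference between the change with peptide in collagen mice and that in adjuvant mice was tested as an interaction. It was positive and passed for 8 of the 10 genes, where 7.24% of all probe sets passed, 5.62% in this direction and 1.62% in the other, with Jph1 at 2.26 (SE 0.23, limma adjusted p = 0.000608), Cacna1s at 1.78 (SE 0.20, limma adjusted p = 0.00102) and Ryr1 at 1.58 (SE 0.21, limma adjusted p = 0.00215). Over all probe sets the interaction had 1626 higher and 469 lower calls, against 2493 and 2544 after quantile normalization and 2373 and 2352 after centring. Sln at 0.80 (SE 0.25, limma adjusted p = 0.0917) and Atp2a2 at -0.11 (SE 0.20, limma adjusted p = 0.768) did not pass. The count depended on single arrays and fell when an array outside CIA was left out. It was 5 with array weights, where 1710 of all 28944 probe sets passed. Over all probe sets the median interaction was 0.0 without CIA replicate 1 and 0.4 without CIA replicate 2. With single arrays left out, Jph1 ran from 2.09 to 2.43, Jph2 from 1.26 to 1.45, Ryr1 from 1.46 to 1.69 and Cacna1s from 1.7 to 1.85.

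Trdn had 19 probe sets, each of which gave a reading of its fall. All 19 were lower in CIA than in adjuvant and passed, where 14.2% of all probe sets were lower. Their changes ran from -3.09 to -0.68 with a median of -2.17, so the fall of the probe set chosen by its high mean was smaller than the median one. As many as 18 of the 19 passed as higher in CIA+MLIF against CIA, with a median of 1.72, where 11.5% of all probe sets were higher. The exception, probe set 10362426, changed by 0.36 (limma adjusted p = 0.146), and it had the smallest change in the other comparison too. It had a mean log2 signal of 6.48 and lay at or below the control entries on 2 arrays. Probe sets of 1 gene share their transcript and are not independent measurements.

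Probe sets of low signal showed the fall too. The 15 that stayed above the control entries on all 8 arrays changed by -3.09 to -1.73 in CIA against adjuvant, while the 2 that lay at or below them on all 8 arrays still changed by -2.16 and -1.69. None of the 19 passed in CIA+MLIF against adjuvant, with changes from -0.71 to -0.18. In adjuvant+MLIF against adjuvant none of them passed as fitted. With array weights 7 passed, all as lower, as did 1010 of all 28944 probe sets. With only the groups compared 4 passed, all as lower, as did 598 of all probe sets.

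**Figure D3:**
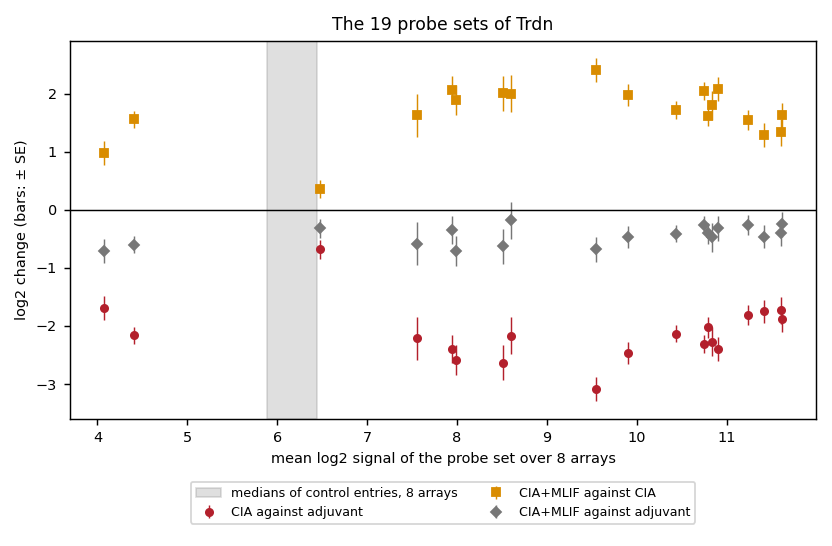
Fitted log2 change with ± 1 SE (y axis) of the 19 Trdn probe sets against their mean log2 signal over the 8 arrays (x axis), for CIA against adjuvant (circles), CIA+MLIF against CIA (squares) and CIA+MLIF against adjuvant (diamonds). The grey band spans the medians of the control entries. All circles lie below 0, all squares above it, and the diamonds between -0.71 and -0.18.

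The slow isoforms were then set against the fast ones by their deviation from the adjuvant mean of the same gene, since signals of different probe sets cannot be compared as levels. For the pumps the isoforms separated in CIA. Atp2a2 lay 0.14 and 0.26 above its adjuvant mean on the CIA arrays, whereas Atp2a1 deviated by -0.83 and -0.78, so that the slow minus fast difference was 0.97 and 1.05. It was 0.27 and 0.18 in CIA+MLIF, 0.16 and 0.18 in adjuvant+MLIF, and -0.06 and 0.06 in adjuvant. The 2 CIA arrays were the highest, with the other collagen and peptide arrays slightly above those of adjuvant. The order of the pump pair was not that of the contractile markers described below. In CIA against adjuvant their median change was -2.19 for the slow list and -1.36 for the fast list.

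For the calsequestrins the same differences are limited by the low signal of Casq2. Casq2 deviated by -1.36 and -1.01 on the CIA arrays and Casq1 by -0.99 and -1.01, which made the slow minus fast difference -0.37 and -0.01. The difference was -0.01 and -0.13 in CIA+MLIF, -0.02 and 0.04 in adjuvant+MLIF, and -0.05 and 0.05 in adjuvant. Casq2 was below the median control entry on both CIA arrays (5.86 against 5.88, and 6.21 against 6.44), so how far it fell beside Casq1 cannot be read from these differences. These differences are descriptions of chosen gene pairs and were not tested.

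**Figure D4:**
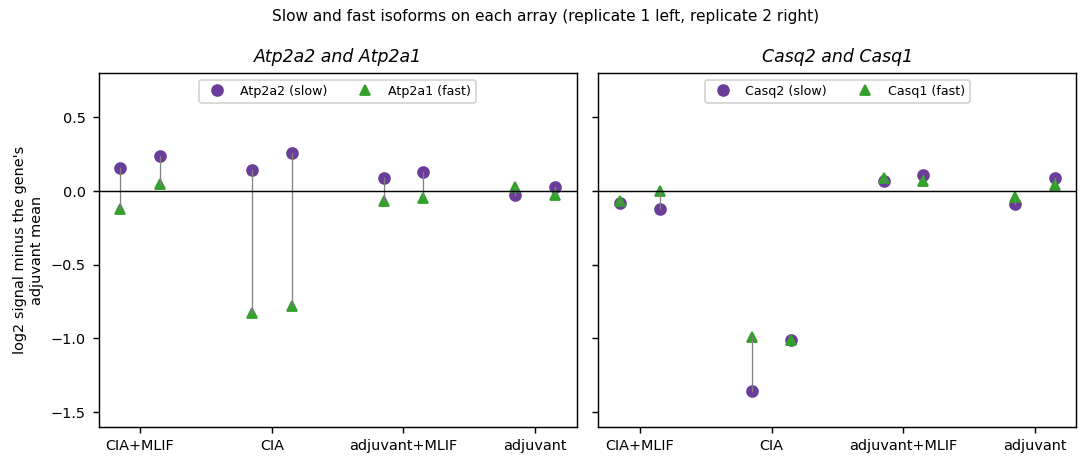
Log2 signal of the slow isoform (circles) and the fast isoform (triangles) minus the gene's own adjuvant mean (y axis) on each array by group (x axis, replicate 1 left and replicate 2 right), for the calcium pumps and the calsequestrins. The pump isoforms lie 0.97 and 1.05 apart on the CIA arrays. Casq2 lies below the median control entry on both CIA arrays, so its distance from Casq1 there is not well determined.

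Contractile genes of both fibre types were lower in CIA. Of 8 slow fibre markers 7 were lower, with a median change of -2.19, and the exception was Tpm3 (limma adjusted p = 0.998). Of 9 fast fibre markers all 9 were lower, with a median of -1.36, and of 12 general fibre markers all 12 were lower, with a median of -1.41, where 14.2% of all probe sets were lower. The median of the 10 triad genes was -1.24. Among single markers, chosen after their values were seen, Myh7, the slow myosin, changed by -2.56, Myh4, the fastest myosin, by -1.40, and Acta1, skeletal actin, by -0.79. Rises in CIA+MLIF against CIA were found for 7 slow, 9 fast and 12 general markers, with medians of 2.17, 1.2 and 1.42, where 11.5% of all probe sets were higher.

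Markers of other cell types moved on the same arrays, and their counts stand against 4.3% of all probe sets higher and 14.2% lower in CIA against adjuvant. All 7 epidermal markers rose in CIA against adjuvant (median 5.21), with a mean log2 signal of 10.75 and 10.82 in CIA+MLIF, 11.45 and 11.76 in CIA, 6.15 and 6.11 in adjuvant+MLIF, and 6.04 and 5.97 in adjuvant. On the adjuvant and adjuvant+MLIF arrays 4 or 5 of the 7 were at or below the control entries. On the CIA+MLIF arrays, where the triad genes differed from adjuvant by -0.25 to 0.20, the epidermal markers were high (median change 4.27 against adjuvant, 7 of 7 higher, where 0.688% of all probe sets were). All 9 neutrophil markers rose in CIA against adjuvant (median 2.23) and fell in CIA+MLIF against CIA (median -2.06, where 3.25% of all probe sets were lower), with mean signals of 7.69 and 7.77 in CIA+MLIF, 9.64 and 9.86 in CIA, 8.24 and 8.25 in adjuvant+MLIF, and 7.40 and 7.62 in adjuvant. The fibroblast and matrix markers rose in 6 of 7 cases (median 0.96), the exception being Dcn, and the 6 adipocyte markers fell (median -1.27). Among 7 smooth muscle markers, Myh11, Lmod1 and Actg2 fell (median of the list -0.49). The part of these cell types in the changes of the triad genes was not tested.

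A wider list of 57 genes that build the triad, excite the fibre or handle calcium, none of them among the 10, was measured for 49. In CIA against adjuvant 26 were lower and none higher, against 14.2% of all probe sets that were lower, with a median change of -0.72. The 8 largest falls that passed were those of the reticulum proteins Srl (sarcalumenin, -1.73) and Hrc (a calcium-binding partner of triadin, -1.56), the acetylcholine receptor subunit Chrna1 (-1.5), the muscle chloride channel Clcn1 (-1.44), Bin1, which shapes the transverse tubule (-1.42), the kinase Speg (-1.41), Stac3, which links the voltage sensor to the release channel (-1.37), and the membrane repair protein Trim72 (-1.32). Limma adjusted p for these 8 lay between 0.000156 and 0.00203. The accessory subunits of the voltage sensor, singled out after their values were seen, fell as well: Cacnb1 by 1.14, Cacng1 by 1.09 and Cacna2d1 by 0.79.

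Some relatives and partners of the 10 genes were named whatever their values. In CIA against adjuvant the heart channel Ryr2 (-0.62, limma adjusted p = 0.0526) and Ryr3 (-0.67, limma adjusted p = 0.0575) did not pass, Ryr2 lying at or below the control entries on all 8 arrays. Atp2a3, the pump of blood and endothelial cells, gave -0.43 in CIA against adjuvant (limma adjusted p = 0.0834) and rose by 0.71 in CIA+MLIF against CIA (limma adjusted p = 0.0162), and Asph, whose locus also encodes junctin, gave -0.42 (limma adjusted p = 0.125). Pln, phospholamban, the inhibitor of SERCA2 in slow fibres and heart, had log2 signals of 6.23 and 6.53 in CIA+MLIF, 5.37 and 6.06 in CIA, 6.91 and 6.98 in adjuvant+MLIF, and 6.71 and 6.83 in adjuvant. It was lower in CIA (-1.06, limma adjusted p = 0.0123), at a level below the control entries, and its change in CIA+MLIF against CIA was 0.67 and did not pass (limma adjusted p = 0.0797). Cacna1c, the pore of the heart and smooth muscle calcium channel, likewise singled out afterwards, changed by 0.04 (limma adjusted p = 0.892).

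In CIA+MLIF against CIA 26 of the 49 were higher and none lower, with a median of 0.67, led by Srl at 1.81, where 11.5% of all probe sets were higher. None passed in CIA+MLIF against adjuvant, in CIA+MLIF against adjuvant+MLIF or in adjuvant+MLIF against adjuvant, in which 0, 1 and 1 genes had an unadjusted p under 0.05 (limma). The interaction was positive and passed for 12 of the 49, where 5.62% of all probe sets did. These counts depended on single arrays, and the median change of all probe sets moved too when a CIA array was left out. Without CIA replicate 2 that median was -0.44 in CIA against adjuvant, 0.43 in CIA+MLIF against CIA and 0.4 for the interaction. Without CIA replicate 1 it was -0.04, 0.03 and 0.0.

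**Figure D5:**
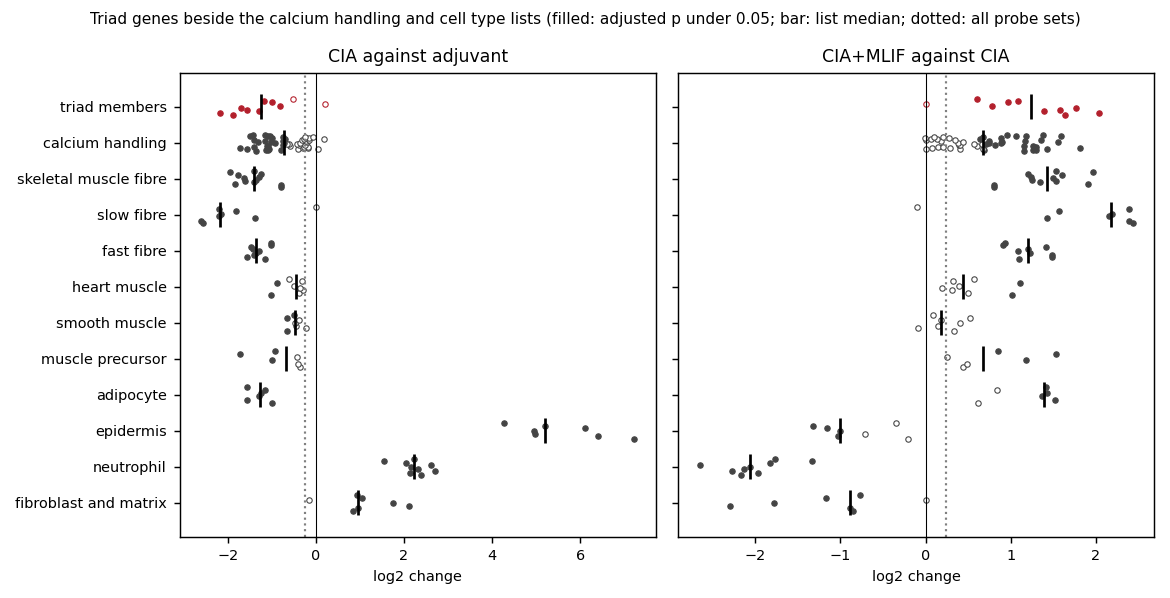
Log2 change (x axis) of each gene in the lists (y axis) for CIA against adjuvant and CIA+MLIF against CIA, with the 10 triad genes in red. Filled points had an adjusted p under 0.05, bars are list medians and the dotted line is the median of all probe sets. The triad median of -1.24 lies beside those of the fast fibre (-1.36) and general fibre (-1.41) lists, and the slow fibre median (-2.19) lies lower.

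Likeness of pattern was measured as the root mean square difference, over the 8 arrays, between the gene-centred log2 signals of a gene and the median profile of the 10 triad genes. That profile was 0.27 and 0.31 in CIA+MLIF, -1.08 and -0.84 in CIA, 0.35 and 0.36 in adjuvant+MLIF, and 0.24 and 0.36 in adjuvant. Within the set, Jph2 (0.0629) and Casq2 (0.0709) were nearest to it and Atp2a2 (0.601) farthest. Outside it, the nearest genes were Tnxb, the matrix protein tenascin-X (0.0339), Sypl2, which encodes the triad protein mitsugumin 29 (0.0383), Pcolce2, an enhancer of procollagen processing (0.0477), Atp1b1, a sodium pump subunit (0.0499), Mapt, the microtubule protein tau (0.0562), and Lrrc14b (0.0609), where the median over all other genes was 0.472. Nearest to Trdn were Ckmt2, the mitochondrial creatine kinase of muscle (0.118), Cavin4, a caveolar protein of muscle (0.131), and Smtnl1 (0.143). The CIA arrays lie farthest from 0 in the profile and so weigh most in this measure.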

How the data were processed

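The table deposited by the authors gives log2 signals of Affymetrix Mouse Gene 1.0 ST probe sets; the log base is taken from the range of the values, and the sources used here name neither software nor normalization. Of 35557 entries, 6613 unannotated entries at the head of the table were taken as controls and left out, and 28944 were tested. Probe sets were named through the platform annotation (21789 with 1 symbol, 1621 with several, 5534 with none). No genome was used; promoter windows came from RefSeq (GRCm38.p6). Group means of all 8 arrays were fitted with limma 3.58.1 (R 4.3.3) with moderated variances (4 residual and 4.965 prior degrees of freedom) and contrasts were tested with Benjamini-Hochberg adjustment over all probe sets, called at an adjusted p under 0.05. No values were filtered. The fit was tested on simulated data. The number of arrays limits the precision: the median SE of CIA against adjuvant was 0.181.

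The 10 genes, the lists and the tests were chosen with earlier results of these data known. Named from the calcium list were the 8 largest passing changes in CIA against adjuvant plus Pln, Hrc, Asph, Stac3, Ryr2, Ryr3 and Atp2a3 by rule, and Cacnb1, Cacng1, Cacna2d1 and Cacna1c after their values were seen, and from the likeness search the 6 nearest genes and the 3 nearest to Trdn. The alternatives were quantile normalization, centring, a filter on low signal, averaging over probe sets, trended and robust variance, array weights, the compared groups alone, a replicate block, the adjuvant+MLIF arrays as 1 array, a stricter threshold and each array left out.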

Additional observations from a re-analysis of the deposited data

Results flagged for a closer look

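The change with MLIF differed between collagen-immunised and adjuvant mice, by limma's test of the interaction, for 8 of the 10 triad genes, where 7.24% of all probe sets passed and 5.62% in this direction. The change in CIA mice minus that in adjuvant mice was 2.26 for Jph1, 1.78 for Cacna1s, 1.64 for Trdn, 1.58 for Ryr1, 1.35 for Jph2, 1.00 for Casq2, 0.89 for Casq1 and 0.84 for Atp2a1 on the log2 scale. Adjusted p ran from 0.000608 for Jph1 to 0.0372 for Atp2a1. Of 18 alternatives, the call was lost in 12 for Atp2a1, 10 for Casq1, 9 for Casq2 and 2 for Trdn. With 2 arrays a group, single arrays could not be tested as outliers.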

How the results depend on the processing

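In CIA against adjuvant and in CIA+MLIF against CIA, 7 to 9 of the 10 genes passed under each alternative that kept 2 arrays a group. Trdn, Jph1, Jph2, Ryr1, Cacna1s, Casq1 and Casq2 kept their direction and their call in all of these. With centring, 1 of the 9 that passed in CIA against adjuvant, Atp2a2, was higher. Calls over all 28944 probe sets moved too. In CIA against adjuvant they were 1987 with array weights and 8127 after quantile normalization, and in CIA+MLIF against CIA 1261 and 7089. Over all 19 alternatives, changes of Trdn ran from -2.13 to -1.66 in the first and from 1.30 to 1.95 in the second comparison. Those of Casq1 ran from -1.04 to -0.78 and from 0.74 to 1.01. For the interaction, 5 of the 10 passed with array weights and 4 at the stricter threshold of 0.01, where 1710 and 1087 of all probe sets passed. The count changed with single arrays left out. The calcium list gave 16 calls with array weights and 17 to 44 with arrays left out in CIA against adjuvant. Where CIA+MLIF was set against CIA it gave 11 with array weights, 17 at the stricter threshold and 12 to 41 with arrays left out. Its interaction count was 22 after quantile normalization, 20 with the lowest tercile of signals left out, 21 with trended and robust variance, 7 with the adjuvant+MLIF arrays averaged and 6 to 36 with arrays left out. With array weights 1 calcium gene passed in adjuvant+MLIF against adjuvant and 1 in CIA+MLIF against adjuvant+MLIF. Of all probe sets, 1440 and 660 passed there. In adjuvant+MLIF against adjuvant, 7 of the 19 Trdn probe sets passed with array weights and 4 with the compared groups alone. Of all probe sets, 1440 and 676 passed there. In CIA+MLIF against adjuvant 1 passed after quantile normalization, 1 after centring, 1 with array weights and 0 to 2 with arrays left out, and the interaction gave 11 at the stricter threshold and 11 to 18 with arrays left out. The stricter threshold lowers counts by construction; otherwise the cause was not tested.

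Signs turned only for changes that had not passed. After quantile normalization, adjuvant+MLIF against adjuvant gave -0.001 for Jph2, -0.056 for Ryr1 and 0.0 for Atp2a1, and CIA+MLIF against adjuvant gave 0.042 for Atp2a1 and 0.078 for Casq1. With arrays left out, Atp2a2 ran from -0.065 to 0.056 in CIA+MLIF against CIA, and in adjuvant+MLIF against adjuvant Trdn from -0.19 to 0.17, Jph2 from -0.022 to 0.094 and Ryr1 from -0.002 to 0.015. In CIA+MLIF against adjuvant+MLIF, Trdn ran from -0.56 to 0.081, Ryr1 from -0.019 to 0.047 and Atp2a1 from -0.055 to 0.11. Against adjuvant, changes in CIA+MLIF for Trdn ran from -0.57 to 0.07, Jph1 from -0.33 to 0.009, Ryr1 from -0.013 to 0.054, Atp2a1 from -0.12 to 0.054, Casq1 from -0.073 to 0.004 and Sln from -0.006 to 0.16. The replicate numbers did not pair the arrays across all 4 groups. Differences between replicates 1 and 2 correlated at 0.39 over all probe sets for CIA+MLIF and adjuvant. For the other pairs of groups the correlations ran from -0.108 to 0.005. With the replicate block 8 of the 10 genes passed in CIA against adjuvant, 8 in CIA+MLIF against CIA and 7 for the interaction, and with the CIA numbers crossed, a pairing chosen after seeing the data, 8, 9 and 7. Signals of Casq2 and Sln near the control entries and 2 arrays a group limit what can be read from small changes.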

Other observations

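Of 6 measured genes of muscle precursors, 3 were lower in CIA paws. Myh3, the embryonic myosin, changed by -1.73, Myod1, the factor that sets muscle identity, by -1.01 and Myh8, the perinatal myosin, by -0.93 in CIA against adjuvant, and these passed by limma, where 14.2% of all probe sets were lower. The factors Pax7 (-0.37, adjusted p = 0.119), Myf5 (-0.42, adjusted p = 0.134) and Myog (-0.44, adjusted p = 0.0719) did not pass. The median of the list was -0.68, and in CIA+MLIF against CIA 3 of the 6 rose (11.5% of all probe sets were higher), with a median of 0.67. Heart muscle markers gave 2 lower of 8 in CIA against adjuvant, Myh6 at -1.02 and Tnnt2 at -0.89.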
